A study of Hordeum vulgare with 18 samples.

Results

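Transcripts of 5 circadian clock loci were followed in leaf and root of highland barley, a hulless form grown at high altitude, under 3 rates of organic fertilizer. The loci are annotated LHY, LNK1, PRR95, PCL1 and JMJ30, and they are 5 of the 68630 loci in the count table. They were chosen by name from a list of clock genes at a time when results of these libraries were known, so their responses to fertilizer are given as a description, without a test. The table holds 28 loci whose annotation names a clock gene, and the 23 that are not among the 5 are counted beside them.

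Plants grew in pots of 3.5 kg of soil and were sampled at flowering. Organic fertilizer stood in for 0, 40 or 100% of the chemical nitrogen, while the total nitrogen, phosphorus and potassium were the same at every rate. Urea was dosed at 357 mg in the 0% pots, the controls, and at 215 mg in the 40% pots, and was left out of the 100% pots. Superphosphate went from 1545 mg at 0% to 1443 mg at 40% and 1289 mg at 100%, and potassium sulfate from 140 to 122 and 96 mg. Organic fertilizer was given at 1117 mg in the 40% pots and 2793 mg in the 100% pots. Leaf and root at each rate gave 6 groups of 3 libraries, 18 in all. The titles say leaf and root, where the design text speaks of above-ground and below-ground parts.

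Total counts ranged from 16.5 to 19 M in the 9 leaf libraries and from 13 to 16.9 M in the 9 root libraries. Summed over 47 loci annotated as small subunits of Rubisco or chlorophyll a-b binding proteins, leaf libraries held 47880 to 111800 CPM (counts per M counts of the library) and root libraries 11.4 to 19.3 CPM. A list of 5 loci for Casparian strip proteins and root lectins did not mark the root, at 1.2 to 12.1 CPM in root, 2.61 to 9.68 CPM in leaf at 0 and 40%, and 41.9 to 56.9 CPM in leaf at 100%. A list of 145 pollen loci summed to 446.5 to 587.3 CPM in leaf and 1172 to 1949 CPM in root, higher in root than in leaf in every library, so it did not single out flowering parts. In whole organs, fewer cells of a type and less RNA per cell cannot be told apart.

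The plant clock is a loop of transcription factors that repress each other in turn through the day. LHY is a MYB factor that peaks around dawn and represses genes of the evening. Pseudo-response regulators (PRR) such as PRR95 follow during the day and repress LHY. PCL1, known in Arabidopsis as LUX, is a DNA-binding protein of the evening complex, which also holds ELF3 and ELF4. LNK1 is a coactivator that in Arabidopsis works with the LHY relative RVE8, and JMJ30 is a histone demethylase whose transcript in Arabidopsis peaks in the evening. Transcript levels of such genes depend on the hour of sampling. The labels name no hour of harvest, and its part in every fertilizer comparison that follows was not tested.

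LHY (D1007_00729) lies on scaffold SDOW01000006.1 from 33255 to 48058 on the plus strand, with a gene length of 3089 bases. LNK1 (D1007_24309) lies on SDOW01000248.1 from 732429 to 747800 on the minus strand, with 1641 bases. PRR95 (D1007_25582) lies on SDOW01000264.1 from 2952938 to 2959852 on the minus strand, with 4096 bases. PCL1 (D1007_45039) lies on SDOW01000638.1 from 93678 to 94502 and JMJ30 (D1007_26028) on SDOW01000271.1 from 1546830 to 1547333, both on the minus strand. The lengths of PCL1 and JMJ30, 825 and 504 bases, equal their spans, so these models hold no intron. None of the 5 overlaps another locus of the table. The annotation names the closest described protein, which was from Petunia for LHY, from rice for PRR95 and PCL1 and from Arabidopsis for LNK1 and JMJ30.

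At 100% organic nitrogen the dawn factor LHY and the coactivator LNK1 stood above both other rates in leaf and in root, and the daytime repressor PRR95 stood below them. The evening genes PCL1 and JMJ30, which gave few counts in leaf, were close to absent in root at 100%. At 40% the 5 loci were much closer to the controls. The share of all genes called at an adjusted p below 0.05 by edgeR's quasi-likelihood test, for 100% against 0%, was 22.9% of those tested in leaf and 10.2% in root. Libraries of 100% and 0% did not overlap for any of the 3 loci tested in leaf or the 5 tested in root. The share of all genes without overlap was not computed, and the share called is another measure. Nothing is read from these counts, since the loci were listed with these comparisons known.

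LHY, the dawn factor, reached 189, 326 and 153 CPM in the 3 control leaf libraries, 409, 264 and 413 CPM at 40%, and 2170, 1766 and 1839 CPM at 100%. The libraries of 100% stood far above all others, and those of 0 and 40% overlapped, with control library 2 above the lowest of 40%. In root LHY reached 87.0, 90.5 and 78.0 CPM in the controls, 160, 103 and 157 CPM at 40%, and 454, 610 and 536 CPM at 100%, so that the 3 rates did not overlap. The log2 change from 0 to 100% was 3.36 ± 0.35 (SE) in leaf, a level 10.3 times that of the controls, and 2.60 ± 0.19 in root, a level 6.06 times theirs. From 0 to 40% it was 0.68 ± 0.32 in leaf and 0.70 ± 0.18 in root. Without control leaf library 2, the leaf change from 0 to 100% was 3.77.

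LNK1, the coactivator, reached 270, 266 and 270 CPM in control leaf, 347, 277 and 246 CPM at 40%, and 627, 519 and 502 CPM at 100%. The 0 and 40% leaf libraries overlapped and the 100% libraries stood above both. In root it reached 47.0, 47.7 and 33.3 CPM in the controls, 81.2, 61.3 and 70.7 CPM at 40%, and 172, 241 and 218 CPM at 100%. The root libraries were thus ordered by rate without overlap, as for LHY. The log2 change from 0 to 100% was 1.29 ± 0.21 in leaf (2.44-fold) and 2.26 ± 0.17 in root (4.79-fold), and from 0 to 40% it was 0.11 ± 0.21 in leaf and 0.72 ± 0.16 in root.

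PRR95, the daytime repressor, reached 81.4, 91.9 and 86.7 CPM in control leaf, 98.7, 67.9 and 81.3 CPM at 40%, and 16.3, 13.9 and 17.2 CPM at 100%. The 3 libraries of 100% lay close together and below the other 6, which overlapped. In root it reached 101, 102 and 85.4 CPM in the controls, 85.4, 107 and 117 CPM at 40%, and 44.5, 51.3 and 66.0 CPM at 100%, again with overlap of 0 and 40% alone. The log2 change from 0 to 100% was -2.20 ± 0.20 in leaf, to 0.217 of the control level, and -0.88 ± 0.16 in root, to 0.542 of it. From 0 to 40% it was -0.08 ± 0.19 in leaf and 0.09 ± 0.16 in root.

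PCL1, of the evening complex, gave 300, 340 and 478 counts in control root, 152, 238 and 438 at 40%, and 5, 2 and 18 at 100%. These are 18.9, 20.2 and 28.9 CPM, then 9.96, 16.3 and 33.8 CPM, then 0.317, 0.137 and 1.12 CPM. The 40% libraries spread widest and enclosed the controls, and the 100% libraries lay far below both. Pooled over libraries, the control root level was 42.2 times that at 100% (exact 95% interval 28.4 to 65.4, counting error only). The log2 change was -5.46 ± 0.65, and -6.60 without root library 3 of 100%, which held 18 of the group's 25 counts. In leaf PCL1 gave 0, 10 and 6 counts at 0%, 0, 0 and 6 at 40% and 0 in each library of 100%, too few to be tested between rates.

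JMJ30, the demethylase, gave 90, 77 and 83 counts in control root, 54, 101 and 109 at 40%, and 1, 2 and 3 at 100%. Its levels were 5.66, 4.57 and 5.01 CPM, then 3.54, 6.93 and 8.40 CPM, then 0.0633, 0.137 and 0.186 CPM. As for PCL1, 0 and 40% overlapped and 100% lay below. The pooled control level was 39.3 times that at 100% (17.8 to 108), with a log2 change of -5.26 ± 0.48. In leaf it gave 0, 5 and 1 counts at 0%, 0 in each library of 40%, and 0, 2 and 2 at 100%, and was not tested between rates.

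**Figure D1:**
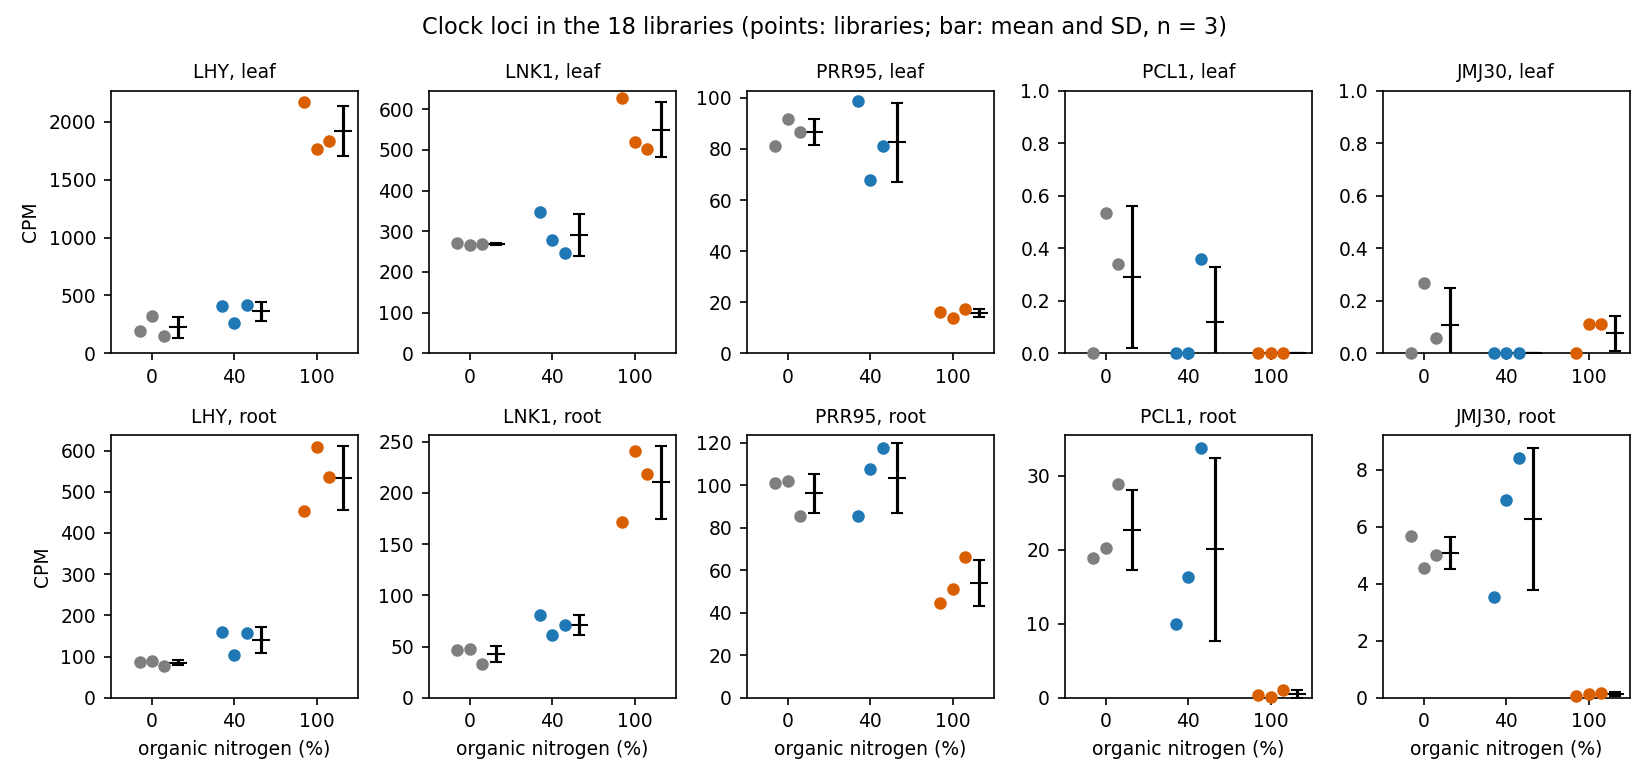
Level of each of the 5 loci in every library, in CPM on linear axes from 0 that differ between panels, by organ (rows) and rate of organic nitrogen in percent; points are libraries and bars the mean and SD (n = 3). LHY and LNK1 sit highest at 100% in both organs, PRR95 lowest there, and PCL1 and JMJ30 drop towards 0 in root at 100%.

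Compared with 40%, the 5 loci stood on the same sides at 100%. LHY had a log2 change of 2.68 ± 0.34 in leaf and 1.90 ± 0.18 in root, and LNK1 of 1.18 ± 0.21 and 1.54 ± 0.17. PRR95 had -2.12 ± 0.19 in leaf and -0.97 ± 0.16 in root. In root PCL1 stood at 36 times its 100% level (24.2 to 55.9) and JMJ30 at 47.8 times (21.7 to 131). These comparisons share the 100% libraries with those against 0%, so they are no separate evidence.

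The sizes differed between organs in ways that ran both ways. The log2 response to 100% in root minus that in leaf was -0.80 ± 0.39 for LHY, 0.93 ± 0.27 for LNK1 and 1.28 ± 0.25 for PRR95, fitted on all 18 libraries and given without a test. LHY thus moved more in leaf by about 2 SE, LNK1 moved more in root, and PRR95 lay less far below its controls in root. These differences were not recomputed under other settings. With library size alone the median difference over all genes moved from 0.044 to 0.365, so their sizes depend on the scaling.

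The ratio of LHY to PRR95 counts within a library does not depend on the total of that library. In leaf it was 2.33, 3.55 and 1.77 in the controls, 4.15, 3.89 and 5.08 at 40%, and 133, 127 and 107 at 100%. In root it was 0.860, 0.890 and 0.912 in the controls, 1.88, 0.962 and 1.34 at 40%, and 10.2, 11.9 and 8.12 at 100%. In each organ the 3 rates were ordered without overlap, and every leaf library lay above every root library of its rate. LHY to PRR1, the PRR known in Arabidopsis as TOC1, moved alike in root, at 0.62 to 0.66 in the controls, 1.09 to 1.68 at 40% and 9.05 to 11.1 at 100%. In leaf, where PRR1 is low, that ratio was 127, 235 and 30.3 in the controls, 130, 50.2 and 115 at 40%, and 1842, 506 and 1303 at 100%, with overlap of 0 and 40%.

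**Figure D2:**
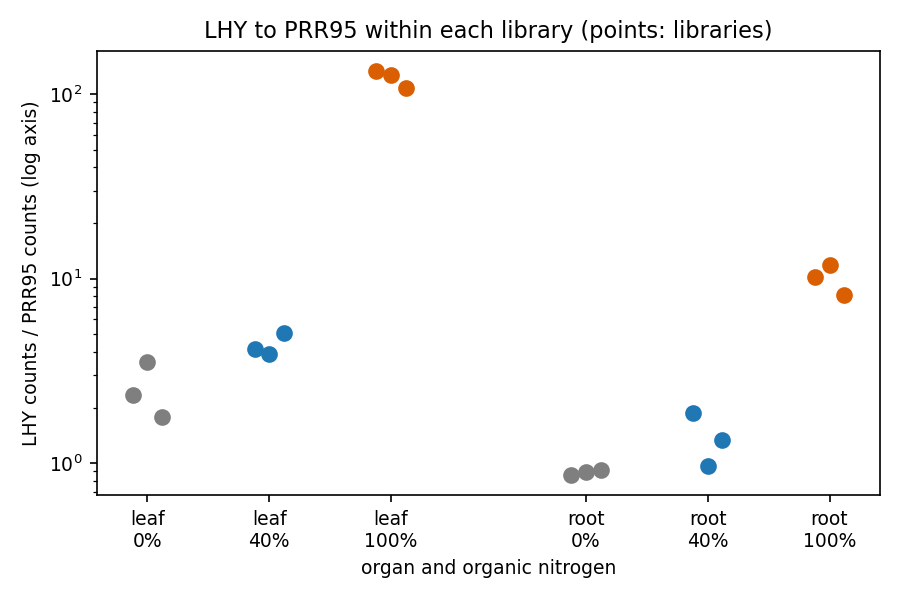
LHY counts divided by PRR95 counts in each of the 18 libraries, on a log axis, by organ and rate; each point is a library. Leaf at 100% reaches 107 to 133 against 1.77 to 3.55 in its controls, and root at 100% reaches 8.12 to 11.9 against 0.860 to 0.912.

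Over the 9 libraries of an organ, log2 CPM of LHY and LNK1 went together, with Pearson's r of 0.93 in leaf and 0.99 in root. LHY and PRR95 ran opposite, at -0.927 in leaf and -0.838 in root. In root LHY also ran opposite to PCL1 (-0.934) and JMJ30 (-0.93), and PCL1 and JMJ30 went together at 0.974. These values describe 9 points that fall into 3 rates and share their libraries, so they restate mostly the step at 100%.

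Between organs, LHY and LNK1 were higher in leaf. The record of how the loci were chosen names no comparison, so the p-values of this paragraph count as tests only if organ differences played no part in the choice. At 0% the log2 difference of leaf over root was 1.62 ± 0.28 for LHY (adjusted p = 0.00014) and 2.89 ± 0.20 for LNK1 (adjusted p = 1.1e-08), from edgeR's quasi-likelihood test on all 18 libraries. At 40% it was 1.62 ± 0.28 (adjusted p = 0.00014) and 2.28 ± 0.20 (adjusted p = 1e-07). All 3 leaf libraries lay above all 3 root libraries in each of these. PRR95 stood at 86.6 ± 5.27 CPM in leaf and 96.1 ± 9.24 CPM in root at 0% (SD, n = 3), and its difference did not pass at 0% (0.08 ± 0.17, edgeR adjusted p = 0.72) or at 40% (-0.08 ± 0.17, adjusted p = 0.72).

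The listed PCL1 and JMJ30 loci were higher in root. PCL1 had 1118 counts in control root against 16 in control leaf, a level 78.1 times higher (47.9 to 137). At 40% it had 828 against 6, 168 times higher (77 to 460), where all 6 leaf counts came from library 3. JMJ30 had 250 against 6 counts at 0%, 46.6 times higher (21.1 to 128), where 5 of the 6 leaf counts came from library 2. At 40% it had 264 against 0, at least 36.3-fold higher in root when each leaf library is put at a floor of 3 counts. Both loci passed the filter on low counts through root alone, where they are high, so no test is given for them. LHY and LNK1 passed and PRR95 did not at each of these rates, where 56.2% of all genes passed at 0% and 59.7% at 40%. The PCL1-like locus D1007_27537 did not share the root preference. It had 9.4, 4.6 and 9.9 CPM in control leaf and 4.2, 5.5 and 4.1 CPM in control root. At 100% its log2 difference of leaf over root was 2.31. The other JMJ30 locus, D1007_41351, was higher in root, at 5.3, 3.1 and 2.2 CPM in control root and 0.11, 0.48 and 0.45 CPM in control leaf.

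At 100%, the rate at which the loci stood apart from the others, the organs are given as a description. The log2 difference of leaf over root was 2.42 ± 0.29 for LHY, 1.96 ± 0.19 for LNK1 and -1.20 ± 0.18 for PRR95, which at this rate was lower in leaf in every library. PCL1 had 25 counts in root and 0 in leaf, and JMJ30 6 and 4 counts, with totals too low to give a fold. The share of all genes called between organs at 100% was 63.1%.

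Levels of different genes can be set side by side per length, as CPM per kilobase. In control leaf LNK1 led with 164, before LHY with 72.1 ± 29.5 and PRR95 with 21.2, while PCL1 and JMJ30 stood at 0.353 and 0.214. In leaf at 100% LHY led with 623 ± 69.7, before LNK1 with 335 and PRR95 with 3.85. In control root LHY (27.6), PCL1 (27.4 ± 6.58), LNK1 (26.0) and PRR95 (23.5) lay within the spread of PCL1, and JMJ30 was lower at 10.1. In root at 100% LHY had 173, LNK1 128 and PRR95 13.2 CPM per kilobase, with PCL1 at 0.635 and JMJ30 at 0.256.

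The 23 other clock loci hold 7 further morning MYB genes, 1 LNK gene, 5 PRR genes, 5 evening genes, 4 blue-light F-box genes and 1 JMJ30 locus. In leaf 20 were tested, and for 100% against 0% 6 rose and 2 fell, which is 40% of them, where 13% of all genes rose, 9.98% fell and 22.9% changed in all (edgeR, adjusted p below 0.05). Their median log2 change was 0.48, against -0.08 over all genes. In root 23 were tested, and 6 rose and 5 fell, 47.8% of them, where 4.69% of all genes rose, 5.54% fell and 10.2% changed. Their median was 0.12, against -0.01 over all genes. The leaf count of 8 fell to 5 without control library 3, and the root count of 11 to 7 without control library 2 or 3 or 100% library 3. The words of the list were chosen with results of these libraries known, so the counts are a description of it.

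**Figure D3:**
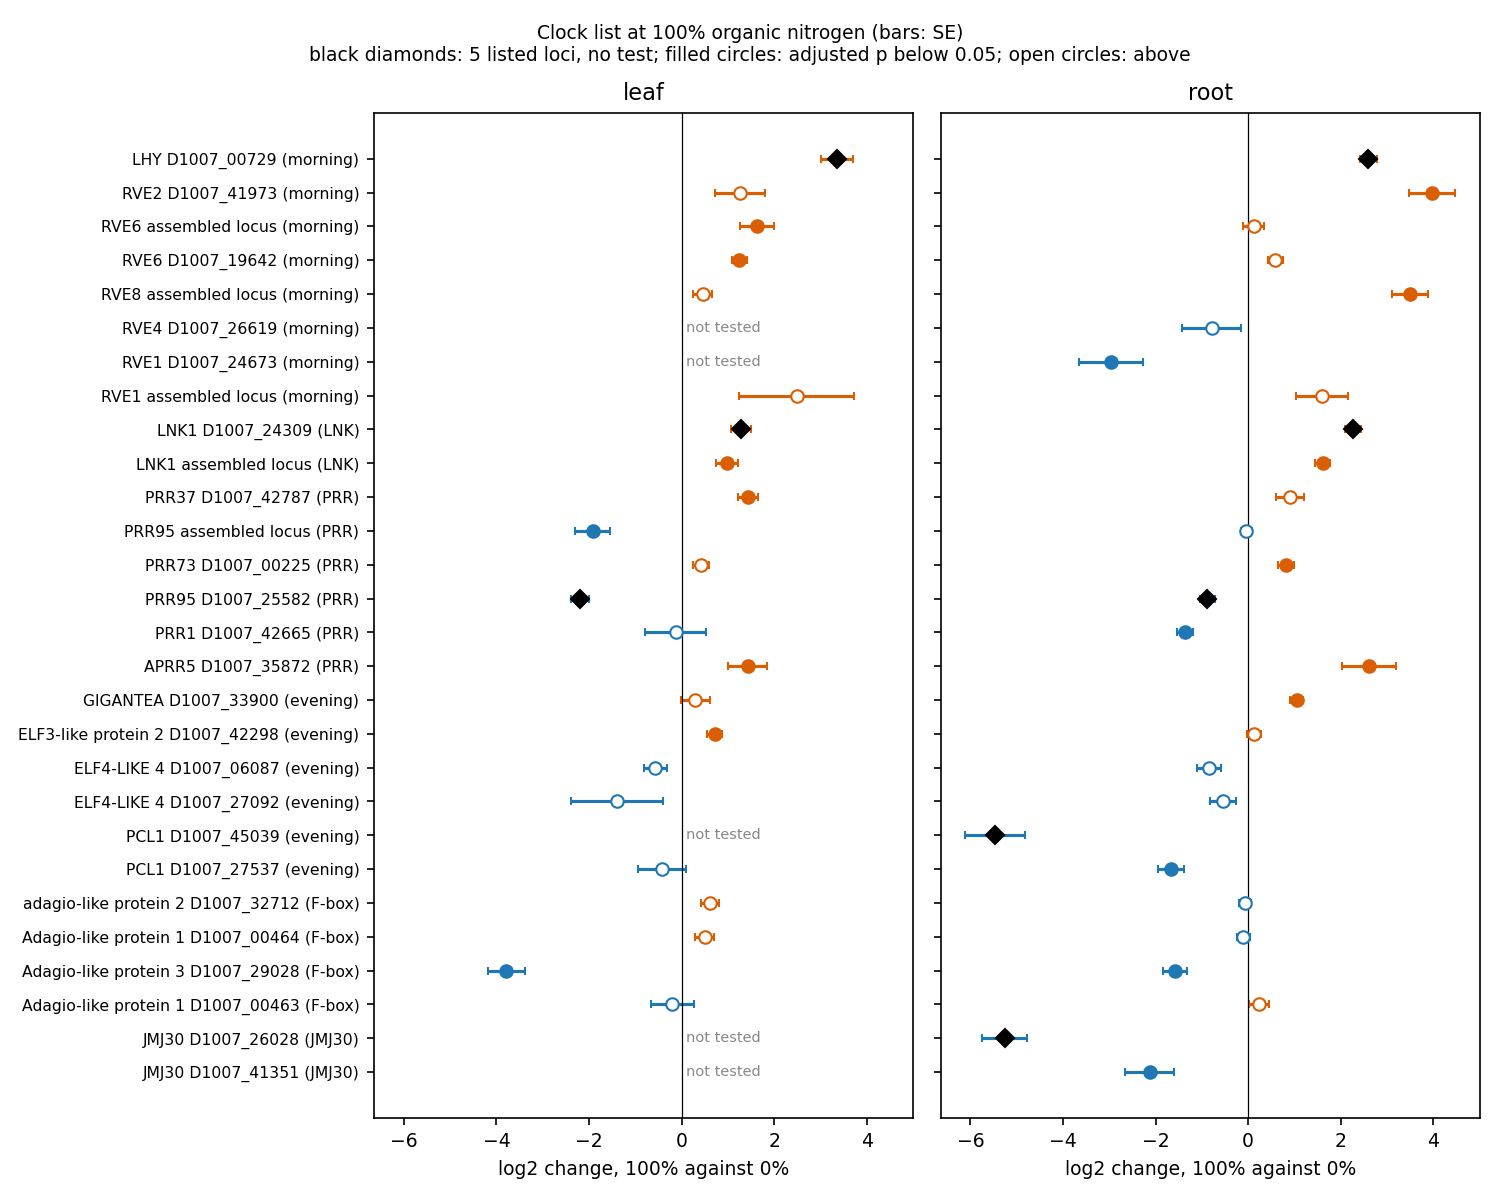
Log2 change from 0 to 100% organic nitrogen for the 28 clock loci in leaf (left) and root (right), with SE as bars; black diamonds are the 5 listed loci, filled circles other loci with an adjusted p below 0.05, open circles those above it. LHY and LNK1 lie right of 0 and PRR95 left of 0 in both panels, and RVE8 is called in root (3.50) but not in leaf (0.45).

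Among the MYB relatives of LHY, the REVEILLE genes, different loci passed in leaf and in root. RVE8, the activator that works with LNK proteins in Arabidopsis, rose in root from 2.22 ± 0.809 to 25.9 ± 3.56 CPM (log2 change 3.50 ± 0.39, edgeR adjusted p = 0.0018), and stood at 47.6 ± 7.08 and 55.0 ± 8.02 CPM in leaf (0.45 ± 0.20, adjusted p = 0.13). This locus lies on SDOW01000566.1 from 4416460 to 4420209. RVE2 (D1007_41973) rose in root from 1.14 ± 0.163 to 18.6 ± 1.66 CPM (3.97 ± 0.50, adjusted p = 0.0029). In leaf RVE2 spread over 119.5, 387.9 and 72.6 CPM in the controls, with library 2 high as for LHY, and its change of 1.26 ± 0.55 did not pass (adjusted p = 0.12).

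The RVE6 loci rose in leaf, D1007_19642 from 31.8 ± 1.63 to 63.7 ± 3.15 CPM (1.25 ± 0.17, edgeR adjusted p = 0.0012) and the locus on SDOW01000263.1 from 3193647 to 3198182 from 89.1 ± 53.8 to 233 ± 11.2 CPM (1.63 ± 0.37, adjusted p = 0.013). The latter lost its call without control leaf library 1 (adjusted p = 0.051). In root they did not pass, at 0.58 ± 0.16 (adjusted p = 0.051) and 0.12 ± 0.23 (adjusted p = 0.77). RVE1 (D1007_24673) fell in root from 7.05 ± 4.02 to 0.951 ± 0.547 CPM (-2.96 ± 0.69, adjusted p = 0.028), a call lost without any of 5 of the 6 libraries.

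The other LNK1 locus, on SDOW01000324.1 from 2418695 to 2456612, rose in both organs like its namesake. It went from 155 ± 19.9 to 257 ± 58.5 CPM in leaf (0.99 ± 0.23, edgeR adjusted p = 0.016) and from 13.7 ± 2.44 to 43.1 ± 3.84 CPM in root (1.61 ± 0.16, adjusted p = 0.0011). The leaf call was lost without control leaf library 3 (adjusted p = 0.063).

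The PRR family split. The other PRR95 locus, on SDOW01000068.1 from 868180 to 872304, fell in leaf from 112 ± 10.4 to 25.3 ± 17.2 CPM (-1.92 ± 0.38, edgeR adjusted p = 0.0077), and in root stood at 129 ± 6.05 and 130 ± 5.68 CPM (-0.04 ± 0.12, adjusted p = 0.85). PRR37 (D1007_42787), whose barley counterpart is the day-length gene Ppd-H1, rose in leaf from 174 ± 32.3 to 397 ± 28.5 CPM (1.44 ± 0.22, adjusted p = 0.0024). PRR1 (D1007_42665) fell in root from 133 ± 13 to 53.3 ± 10.8 CPM (-1.37 ± 0.17, adjusted p = 0.0028), and in leaf was at or below 4 CPM on average at every rate. Its root call was lost with all 18 libraries in 1 fit (edgeR adjusted p = 0.081).

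PRR73 (D1007_00225) rose in root from 47.9 ± 9.80 to 86.6 ± 7.36 CPM (0.82 ± 0.17, edgeR adjusted p = 0.02), a call lost without any of 4 of the 6 libraries. APRR5 (D1007_35872), annotated by its Arabidopsis relative, rose in leaf from 3.13 ± 0.930 to 7.07 ± 1.95 CPM (1.43 ± 0.42, adjusted p = 0.037) and in root from 0.627 ± 0.204 to 4.04 ± 2.96 CPM (2.62 ± 0.58, adjusted p = 0.024). In each organ this call was lost without any of 5 of the 6 libraries.

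Among evening genes, GIGANTEA (D1007_33900), a partner of the F-box proteins, rose in root from 358 ± 54.0 to 761 ± 92.8 CPM (1.05 ± 0.14, edgeR adjusted p = 0.0039), opposite in direction to PCL1 and JMJ30. With all 18 libraries in 1 fit the GIGANTEA call was lost (edgeR adjusted p = 0.061). A PCL1-like locus (D1007_27537) fell in root from 4.57 ± 0.766 to 1.49 ± 0.326 CPM (-1.66 ± 0.28, adjusted p = 0.0094). This call was lost with all 18 libraries in 1 fit (edgeR adjusted p = 0.058). In leaf the change of this locus did not pass (-0.42 ± 0.51, edgeR adjusted p = 0.58). An ELF3-like locus (D1007_42298) rose in leaf from 94.0 ± 1.82 to 130 ± 7.81 CPM (0.72 ± 0.17, adjusted p = 0.015). It lost the call without control leaf library 3 (edgeR adjusted p = 0.051) and with library size alone (edgeR adjusted p = 0.072). Neither ELF4-like locus passed in leaf or root at 100% against 0%.

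FKF1, the F-box protein annotated Adagio-like protein 3 (D1007_29028), fell in both organs. It went from 29.2 ± 11 to 1.76 ± 0.535 CPM in leaf (-3.78 ± 0.40, edgeR adjusted p = 0.00052) and from 32.4 ± 7.69 to 11.2 ± 3.51 CPM in root (-1.58 ± 0.26, adjusted p = 0.008). The other 3 F-box loci did not pass in either organ. The other JMJ30 locus (D1007_41351) fell in root from 3.53 ± 1.59 to 0.807 ± 0.431 CPM (-2.13 ± 0.53, adjusted p = 0.034), a call lost without any of 5 of the 6 libraries.

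Of the 40% plants, no other clock locus was called against 0% by edgeR, 0 of 20 in leaf and 0 of 23 in root. Over all genes 0.00998% were called in leaf and 0.306% in root, and 3635 and 3295 genes had an unadjusted p below 0.05. DESeq2 called 2 clock loci in leaf and 2 in root, among 1585 and 1155 genes called in all, and limma voom 4 and 1, among 2123 and 484. In leaf, edgeR without control library 2 called 2 clock loci among 1035 genes.

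For 100% against 40%, 8 rose and 3 fell of 20 in leaf, 55%, where 11.1% of all genes rose, 7.52% fell and 18.6% changed. In root 5 rose and 4 fell of 23, 39.1%, where 2.4% rose, 2.19% fell and 4.59% changed. The leaf count fell to 3 without 40% library 1 or 3, 5 without 40% library 2 and 7 without 100% library 1, and the root count to 3 without 100% library 3 and 5 without 40% library 2. FKF1 again fell in both, by 2.65 on the log2 scale in leaf (edgeR adjusted p = 0.0025) and by 1.86 in root (adjusted p = 0.0078). The ELF4-like locus D1007_06087 fell in leaf from 29.0 ± 6.36 CPM at 40% to 11.5 ± 1.90 CPM (-1.08 ± 0.24, adjusted p = 0.015), a call lost without 40% library 3.

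**Figure D4:**
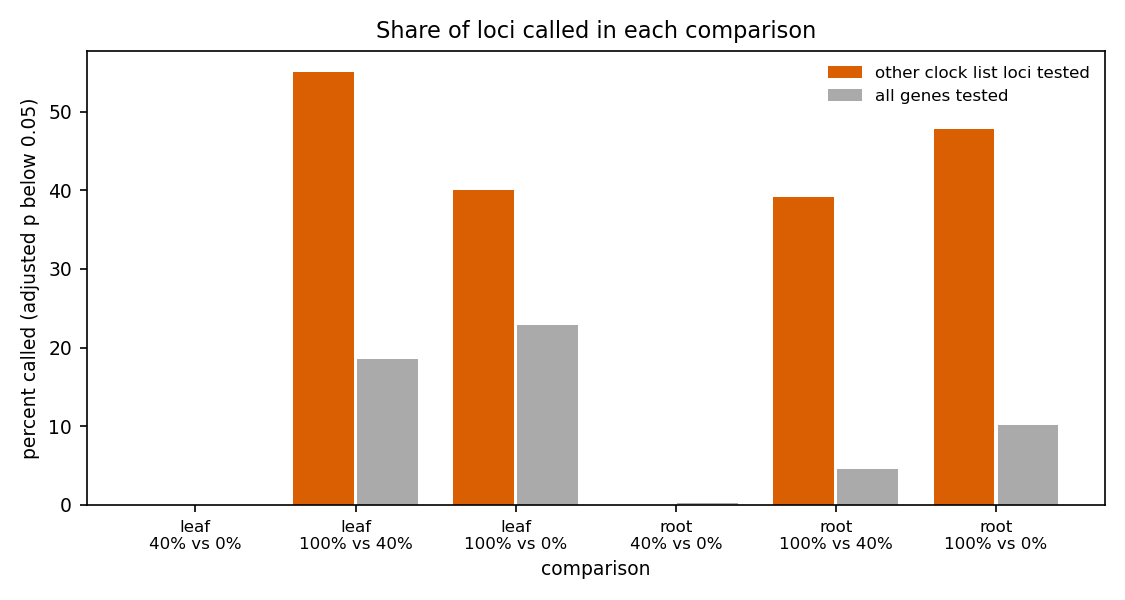
Percent of loci called at an adjusted p below 0.05 in each comparison of rates, for the other clock loci tested (orange) and all genes tested (grey); bars start at 0. The clock loci reach 40 and 47.8% for 100% against 0% in leaf and root, beside 22.9 and 10.2% of all genes, and 0% for 40% against 0%.

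The responses themselves were compared between organs on all 18 libraries. For 100% against 0%, 7 of the 23 other clock loci differed (30.4%), where 15.9% of all genes did. For 100% against 40%, 6 differed, 26.1%, where 11.5% did, and for 40% against 0% none of 23, where 1.9% did. The 6, their share and the counts below for this comparison include JMJ30 D1007_41351, whose call is not read as a test. It was not tested in the leaf fit and passed the filter on low counts through root alone. The count of 7 fell to 3 without control root library 1 or 2 or 100% root library 1, and to 4 without control leaf library 2, control root library 3, 100% leaf library 2, or 100% root library 2 or 3. The count of 6 fell to 2 without 40% root library 3 or 100% root library 1, and to 3 without 40% leaf library 2, 40% root library 2 or 100% root library 3. Of the 7, 2 kept their call under every alternative, and of the 6, 1 did. RVE8 had the smallest adjusted p of these, with a response larger in root by 3.00 ± 0.44 on the log2 scale (edgeR adjusted p = 0.00068). The other PRR95 locus differed by 1.84 ± 0.42 (adjusted p = 0.0088), having fallen in leaf and not passed in root.

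Downstream of the clock, loci annotated as photoperiod output (CONSTANS-like, heading date, flowering locus T and cyclic dof factor genes) were counted apart. For 100% against 0%, 6 of 32 tested rose and 1 fell in leaf, 21.9%, close to the 22.9% of all genes. In root 3 of 24 rose and 6 fell, 37.5%, beside 10.2% of all genes. A cyclic dof factor 2 locus (D1007_44424), of a family that represses CONSTANS in Arabidopsis, rose in root from 5.55 ± 0.893 to 38.5 ± 2.73 CPM (2.75 ± 0.22, edgeR adjusted p = 0.00027). CONSTANS-LIKE 9 (D1007_46635) fell in root from 52.5 ± 5.66 to 8.51 ± 2.47 CPM (-2.68 ± 0.34, adjusted p = 0.0029).

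HEADING DATE 3A (D1007_20517), named after the rice florigen, had no count in root and in leaf stood at 4.95 ± 1.81 CPM at 0%, 27.2 ± 5.13 CPM at 40% and 0.447 ± 0.494 CPM at 100%. Its fall from 0 to 100% was called (-3.21 ± 0.69, edgeR adjusted p = 0.01). Among those that rose in leaf were HD1 (D1007_11146, 1.88 ± 0.34, adjusted p = 0.0049), CO3 (D1007_48390, 2.45 ± 0.54, adjusted p = 0.012) and CONSTANS-LIKE 5 (D1007_39864, 1.22 ± 0.27, adjusted p = 0.012). The calls of CO3 and CONSTANS-LIKE 5 were lost without control leaf library 3 (edgeR adjusted p = 0.055 and 0.057). A FLOWERING LOCUS T locus (D1007_50894) rose in leaf from 0.274 ± 0.291 CPM at 40% to 6.08 ± 4.66 CPM at 100% (4.64 ± 1.18, adjusted p = 0.024). This call was lost without any of 4 of the 6 libraries. By words for photoreceptors 24 loci were found. For 100% against 0%, 3 of 19 tested in leaf rose and 1 fell (21.1%), beside 22.9% of all genes. In root 2 of 19 rose and 1 fell (15.8%), beside 10.2%. The locus that fell in root is named a nitrogen regulatory protein P-II homolog (D1007_02155, -0.50 ± 0.12, edgeR adjusted p = 0.032). No locus named a photoreceptor was thus called lower there, and the P-II call was lost without any of 5 of the 6 libraries. A locus annotated UVR8 (D1007_27547), the ultraviolet-B receptor, rose from 9.02 ± 1.96 to 171 ± 29.4 CPM in leaf (4.50 ± 0.27, adjusted p = 9e-05) and from 1.19 ± 0.303 to 32.2 ± 3.86 CPM in root (4.70 ± 0.35, adjusted p = 0.0002). Phototropin-1A (D1007_01492), a blue-light receptor, fell in leaf from 418 ± 25.1 to 86.0 ± 15.9 CPM (-2.03 ± 0.20, adjusted p = 0.0004).

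The genes closest to each clock locus in pattern were taken by Pearson's r of log2 CPM over the 9 libraries of an organ. They came from 11088 genes in leaf and 12310 in root (12311 for JMJ30). Each was tested in that organ, with a mean of at least 5 CPM there and an informative annotation. The root part was added after the data were seen. In leaf the nearest to LHY were an aspartyl protease locus (D1007_35347, r = 0.994), an 18.6 kDa class III heat shock protein (D1007_15275, r = 0.988) and the chaperone ClpB1 (D1007_04738, r = 0.981). ClpB1 stood at 10.5, 28.1 and 222 CPM on average at 0, 40 and 100%. Nearest to LNK1 in leaf was an anoctamin-like locus (D1007_23618, r = 0.986), and nearest to PRR95 was a locus for SGS3, a protein of RNA silencing (D1007_49529, r = 0.989).

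In root the 3 nearest genes of LHY, LNK1 and PRR95 included a locus of the clock list, and those of PCL1 and JMJ30 did not. JMJ30 itself lay below the limit of 5 CPM and could not be among them. Its r with PCL1 was 0.974, where the third gene listed for PCL1, an aquaporin locus (D1007_44128), had 0.973. LHY had LNK1 at r = 0.99, after a LEUNIG_HOMOLOG corepressor locus (D1007_60983, r = 0.991) and beside the heat stress factor A-2c (D1007_30082, r = 0.99). LNK1 had the other LNK1 locus (r = 0.991), LHY, and cyclic dof factor 2 (D1007_44424, r = 0.987). PRR95 had FKF1 first (D1007_29028, r = 0.986). Nearest to PCL1 was an F-box locus on SDOW01000465.1 from 1255468 to 1258531 (r = 0.982), and nearest to JMJ30 was CONSTANS-LIKE 9 (D1007_46635, r = 0.983). With 9 points in 3 rates, a gene that steps at 100% can reach such values, and how many did was not counted.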

How the data were processed

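RNA of 18 samples was measured, extracted with TRIzol and made into libraries with the NEBNext Ultra RNA kit, per the labels' protocols. The raw read counts per locus were used as deposited by the authors. Per the submitters' processing notes, the tools were HISAT2 2.0.5, featureCounts 1.5.0-p3, fastp, CASAVA 1.8 and, beside these, DESeq2 1.20.0, whose roles are not stated. The mouse builds GRCm38 and mm10 are named too. The loci lie on barley scaffolds of an assembly with no name in the labels, and positions are given on these. The handling of strand and of reads with several matches is not stated, so how reads were shared between loci of the same name (the PRR95, LNK1 and JMJ30 pairs) is unknown. The gene length (other values, in bases, deposited by the authors) was used for CPM per kilobase. Names come from the automatic annotation in the table; none of the 5 locus tags matched the reference gene table. No sequence is printed.

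The quasi-likelihood test of edgeR 4.0.16 (R 4.3.3) was run on the counts, with TMM factors and filterByExpr (minimum count 10, minimum total 15). Its 2-sided p-values were adjusted by Benjamini-Hochberg across every gene of the fit, and 0.05 was the threshold. The 9 libraries of an organ were fitted together (20032 genes in leaf, 21895 in root), and all 18 for comparisons of organs and of responses (24046 genes). The SE is the log2 change divided by the root of its F value. CPM uses the library total. Ratios of pooled counts have exact binomial 95% intervals, and the floor is 3 counts per library; both cover counting error only. Scripts were tested on simulated counts.

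The 5 loci and the lists were chosen with earlier results of these data known. Every tested locus of the clock list could be named, and of the 2 related lists at most 4 called loci per comparison, those of smallest adjusted p. The p-values measure the spread between these samples, which may be technical, since the labels do not say whether libraries of 1 group are separate plants. Alternatives were RLE factors, library size alone, no filter, DESeq2 1.42.0, limma 3.58.1 voom with sample weights, a replicate block, other sets of libraries in the fit, and leaving out each library.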

Additional observations from a re-analysis of the deposited data

Results flagged for a closer look

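These loci of the clock list had a response that differed between organs by the interaction term of edgeR's fit on all 18 libraries. Each value is the log2 response in root minus that in leaf.

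For 100% against 0% the morning genes RVE8 (3.00 ± 0.44 SE, adjusted p = 0.00068) and RVE2 (D1007_41973, 2.67 ± 0.80, adjusted p = 0.034) responded more in root. The RVE6 locus on SDOW01000263.1 (-1.55 ± 0.46, adjusted p = 0.031) and RVE6 D1007_19642 (-0.71 ± 0.23, adjusted p = 0.043) responded more in leaf. The PRR95 locus on SDOW01000068.1 (1.84 ± 0.42, adjusted p = 0.0088) fell in leaf and did not pass in root. FKF1 D1007_29028 (2.17 ± 0.46, adjusted p = 0.0061) fell in both organs, and further in leaf. Adagio-like protein 2 (D1007_32712) differed by -0.72 ± 0.23 (adjusted p = 0.047), though it passed in neither organ.

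For 100% against 40% the values were 2.05 ± 0.43 for RVE8 (adjusted p = 0.008), -0.83 ± 0.23 for RVE6 D1007_19642 (adjusted p = 0.027) and -0.77 ± 0.21 for the ELF3-like locus D1007_42298 (adjusted p = 0.03). They were -1.96 ± 0.61 for the PCL1-like locus D1007_27537 (adjusted p = 0.05, just under the threshold before rounding) and -0.93 ± 0.25 for Adagio-like protein 1 D1007_00464 (adjusted p = 0.029). JMJ30 D1007_41351 had -5.26 ± 1.25, on few leaf counts, with a mean of 0.0606 CPM in leaf at 40%. It was not tested in the leaf fit and passed the filter on low counts through root alone, so no test is given for it.

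RVE8 and the PRR95 locus kept their calls for 100% against 0% under all 18 alternatives, with adjusted p up to 0.0033 and 0.026. RVE2 lost its call in 11 of 18, RVE6 D1007_19642 in 13, Adagio-like protein 2 in 12, the RVE6 locus on SDOW01000263.1 in 7 and FKF1 in 1. For 100% against 40% RVE8 kept its call in all 18. The PCL1-like locus lost it in 13, and RVE6 D1007_19642, the ELF3-like locus and Adagio-like protein 1 in 7 each. These 2 comparisons share the 100% libraries.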

How the results depend on the processing

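Of 2233 recomputed log2 changes, 14 had another sign than the value given. They belong to 6 changes of members within 2 SE of 0: PRR95 in leaf and in root for 40% against 0% and between organs at 0% (down to -0.15) and at 40% (up to 0.0645), PCL1 in root for 40% against 0% (up to 0.118) and JMJ30 between organs at 100% (up to 0.434). None of the 2130 values of changes that were called or lay at least 2 SE from 0 changed sign, and 250 of 1728 values of named loci lost their call. With library size alone the median log2 change of all genes moved in leaf from -0.075 to -0.326 for 100% against 0% and from -0.030 to -0.284 against 40%, and in leaf against root from -0.054 to -0.283 at 0%, -0.179 to -0.429 at 40% and -0.315 to -0.882 at 100%. LNK1 in leaf was then 1.03 and 0.92, and PRR95 -2.46 and -2.39. Calls that were higher in leaf went from 56.5 to 37.1% and from 59.6 to 36.7% of all calls, and the clock list from 6 higher and 2 lower to 4 and 3, and from 8 and 3 to 4 and 3 (7 in all). Between organs at 100% they went from 42.1 to 28.3%, and the list from 13 and 6 to 10 and 6. For the difference of responses, calls higher in root went from 45.3 to 69.7% (100% against 0%) and from 37.6 to 64.8% (against 40%), and the list from 4 and 3 to 5 and 0, and from 1 and 5 to 2 and 1, 3 in all. The cause of the moves was not tested.

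Counts of clock loci called for 40% against 0%, 0 by edgeR in leaf, in root and for their difference, were 2, 2 and 2 by DESeq2 and 4, 1 and 4 by limma voom. With all 18 libraries in 1 fit, 2 were called in leaf for 40%, and in root 6 for 100% against 0% and 4 against 40%. Without a filter 1 was called in root for 40%, and 3 for the difference of responses at 100% against 40%. The fitted log2 value of PCL1 between organs at 100%, -5.91 by edgeR and -3.43 by limma voom, is set against 0 leaf counts, so it depends on the prior count and is no fold.

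Leaving out each library in turn gave 5 to 8 clock loci for leaf at 100% against 0%, 0 to 2 at 40% against 0% and 3 to 9 at 100% against 40%, and in root 7 to 9, 0 to 1 and 3 to 9. The differences of responses ranged from 3 to 7, 0 to 2 and 2 to 7. LHY in leaf ranged from 3.15 to 3.77, PCL1 in root from -6.60 to -5.03 (100% against 0%) and -6.38 to -4.66 (against 40%), JMJ30 in root from -5.59 to -4.97, and the fitted PCL1 value between organs at 100%, likewise no fold, from -6.34 to -4.78. PCL1 between organs at 40% ranged from -11.2 to -6.50 and JMJ30 at 0% from -6.98 to -4.68.

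Within an organ, libraries of the same number at different rates do not pair: over 18 pairs their deviations correlated at -0.163 to 0.165, with 4 above 0.1. Leaf and root libraries of the same number were not compared. Whether they pair was not tested, and the comparisons of organs and of responses treat them as separate. With the replicate block 8 clock loci were called in leaf and 9 in root for 100% against 0%, 8 and 6 against 40%, and 4 for the difference of responses at 100% against 0%. Depth limits PCL1 and JMJ30 in leaf and at 100% in root, where a library held 18 counts or fewer.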
